A study of Homo sapiens with 4 samples.

Results

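NR0B2, the gene of the nuclear receptor SHP, was described here together with 9 genes that sense, make, move or signal the presence of bile acids, in Huh7 cells depleted of the protein NF90. The 10 genes were NR0B2, NR1H4, CYP7A1, CYP8B1, ABCB11, ABCB4, SLC10A1, SLC51B, FGF19 and FGFR4. They were chosen by their place in the bile acid circuit around NR0B2, once the difference of NR0B2 in these data was known, and their rows were selected on the mean level over all arrays. They were taken by symbol from the probe table of the array, which held 119 probe set rows for them among 352859 rows in all. A probe set row covers a piece of a gene, and its value is a log2 RMA value. A row was kept where its mean over the 4 arrays reached 2.13, which is the 40th percentile over the whole table, and kept rows were averaged to give each gene 1 value per array. This left 75 of the 119 rows and 9 of the 10 genes, among 19140 genes tested in all. CYP7A1 had no kept row. Just above the threshold lay rows of ABCB11 (mean 2.16) and NR1H4 (2.30), and just below it rows of ABCB11 (2.08) and ABCB4 (2.03).

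One group was Huh7 cells given a small interfering RNA (siRNA) that targets NF90 (siNF90, 2 arrays), and it was set against Huh7 cells treated with the siRNA that the labels call siNTC (2 arrays). Huh7 is a line from a human hepatocellular carcinoma, and NF90 binds double-stranded RNA. The labels do not say whether the 2 arrays of a group came from separate cultures, so the spread behind each p-value may be technical. The gene of NF90 itself is not analysed here, and the depletion was not checked. Differences are on the log2 scale, siNF90 minus siNTC, and fewer cells of a type and less RNA per cell cannot be told apart in such bulk samples.

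Bile acids are made from cholesterol in hepatocytes and are detected there by FXR, a nuclear receptor that binds DNA with its partner RXR. FXR switches on NR0B2, and SHP, which lacks a DNA-binding domain of its own, holds back the receptors that drive the bile acid synthesis genes CYP7A1 and CYP8B1. FXR also switches on the transporters that carry bile acids out of the cell and, chiefly in the intestine, the hormone FGF19, which acts on hepatocytes through the receptor FGFR4.

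NR0B2 stood well apart from the other 8 tested genes in the size of its difference. Its gene value was 6.77 and 6.72 on the siNF90 arrays, against 5.20 and 4.99 on the siNTC arrays. The groups did not overlap, siNF90 being the higher, and the gap was far wider than the spread within either group. The means were 6.74 ± 0.035 in siNF90 and 5.10 ± 0.14 in siNTC cells (SD, n = 2 each), a difference of 1.65 or 3.13-fold. NR0B2 was taken up for this difference, so it is a description with no test. Of the 19140 genes 46 had a larger positive difference, and of the 14441 genes with at least 3 kept rows 6 had one. NR0B2 itself has 3 kept rows and was taken up for its difference, so nothing is read from these ranks.

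The 3 kept rows of NR0B2 differed in size but not in direction. The first row had 5.82 and 5.70 in siNF90 against 3.47 and 3.34 in siNTC cells, a difference of 2.35. The second row had 6.91 and 7.03 in siNF90 against 5.55 and 5.66 in siNTC cells, a difference of 1.37. The third row had 7.58 and 7.43 in siNF90 against 6.58 and 5.98 in siNTC cells, a difference of 1.22. In each of these 3 rows the groups did not overlap. The fourth row was dim, with 1.84 and 1.40 in siNF90 against 1.64 and 1.74 in siNTC cells, and its groups overlapped. Counting that dim row as well lowered the difference of the gene to 1.22, which is 2.33-fold.

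**Figure D1:**
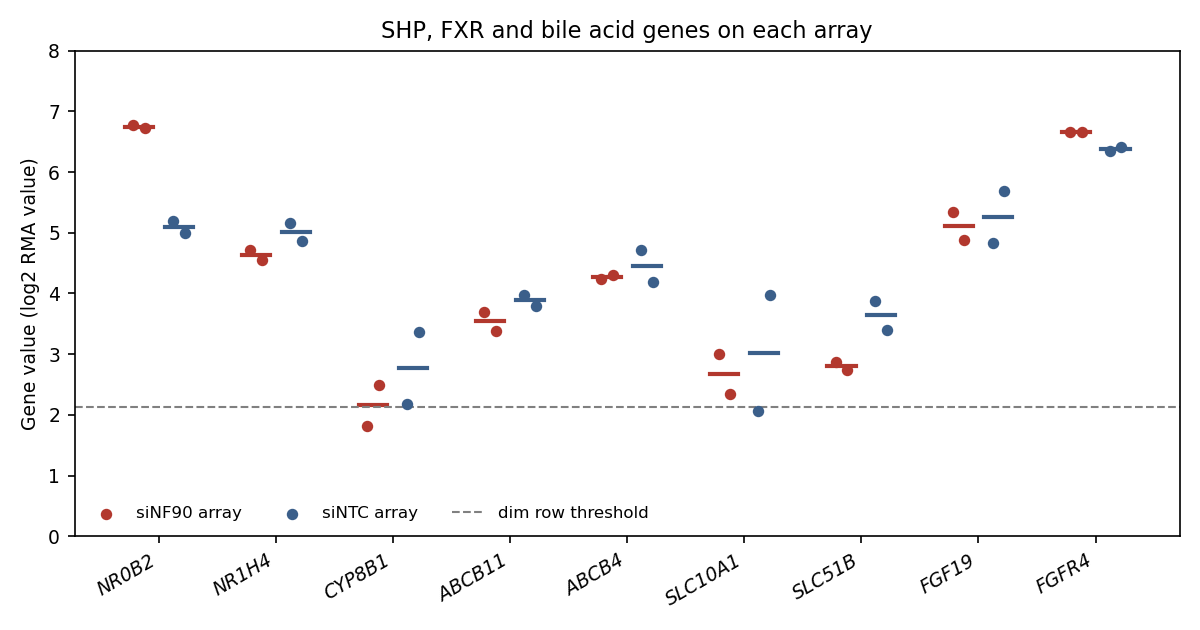
Gene values (log2 RMA value, vertical axis) of the 9 tested genes on each array. Points are single arrays, siNF90 in red on the left and siNTC in blue on the right of each gene, bars are the means of 2 arrays, and the dashed line is the dim row threshold of 2.13. The siNF90 arrays of NR0B2 lie at 6.77 and 6.72, above its siNTC arrays at 5.20 and 4.99.

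Across all 19140 genes, limma called 0.0% at an adjusted p of 0.05, which is 0 genes, against 1683 genes at an unadjusted p under 0.05 and 48 genes, or 0.251%, with a trend and robust prior. None of the other 8 tested genes passed in either fit. Groups without overlap were common, in 41.1% of all genes, with siNF90 above in 19.2% and below in 22.0%. Among the 9 tested genes siNF90 was above in 2 (NR0B2 and FGFR4) and below in 3 (NR1H4, ABCB11 and SLC51B). Because the genes were proposed with these results known, nothing is read from those shares. Of the 9 genes 2 had a positive and 7 a negative difference, with a median of -0.35, where the median of all genes was -0.018.

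NR1H4 encodes FXR, the bile acid receptor. Its gene value over 17 kept rows was 4.71 and 4.56 in siNF90, against 5.16 and 4.87 in siNTC cells. The siNF90 arrays lay below the siNTC arrays, but the gap between the groups was smaller than the distance between the siNTC arrays. The difference was -0.38 (SE 0.20; 95% interval from -0.91 to 0.14) and did not pass (limma, adjusted p = 0.644). Of the 17 rows 12 had a negative and 5 a positive difference, from -2.36 to 1.07. In 5 rows the siNF90 arrays were both below and in 1 row both above the siNTC arrays, where all 171120 kept rows gave 20.3% and 18.0% (38.3% in either direction).

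CYP7A1, the rate-limiting enzyme of the classic route of bile acid synthesis, could not be compared. All 8 of its rows were dim, with row means from 0.930 to 1.57. Their mean was 1.19 and 1.23 on the siNF90 arrays, against 1.33 and 1.503 on the siNTC arrays, which lies well under the threshold of 2.13. CYP8B1, the sterol 12-alpha-hydroxylase that sets the share of cholic acid, had 1 kept row of 6. That row had 1.82 and 2.49 in siNF90 against 2.17 and 3.36 in siNTC cells. The groups overlapped, and the interval of the difference of -0.61 ran from -1.85 to 0.63 (limma, adjusted p = 0.739). For the pair of synthesis enzymes that SHP is known to hold back, the arrays therefore gave signal near or under the dim threshold in both groups.

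ABCB11 encodes the bile salt export pump of the canalicular membrane, and FXR is known to activate it. It had 7 kept rows of 28, and its gene value was 3.69 and 3.39 in siNF90, against 3.97 and 3.80 in siNTC cells. The siNF90 arrays lay below the siNTC arrays, but the difference of -0.35 (SE 0.20) did not pass (limma, adjusted p = 0.674; 95% interval from -0.88 to 0.19). Its rows did not go one way. The brightest kept row had 6.05 and 5.84 in siNF90 against 7.07 and 5.80 in siNTC cells, whereas another bright row had 5.97 and 6.53 in siNF90 against 5.43 and 5.64 in siNTC cells. With the dim filter at the 60th percentile the difference of ABCB11 turned to 0.10.

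ABCB4, the phospholipid floppase of the same membrane, had 4.24 and 4.31 in siNF90, against 4.72 and 4.19 in siNTC cells, over 20 kept rows of 21. The siNF90 arrays lay between the siNTC arrays. Its difference was -0.18 (SE 0.24, 95% interval from -0.81 to 0.45; limma, adjusted p = 0.849), and 10 rows were positive and 10 negative. The difference was 0.079 without the first siNTC array. Single rows of ABCB4 had differences from -2.01 to 2.01, and in 15 of the 20 the groups overlapped. Over all kept rows 38.3% had groups without overlap.

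SLC51B showed the lowest difference of the 9 genes, opposite in sign to that of NR0B2. It encodes the beta subunit of the organic solute transporter OST, which lets bile acids out across the basolateral membrane and is known as a target of FXR. Its gene value over 4 kept rows of 6 was 2.87 and 2.74 in siNF90, against 3.88 and 3.41 in siNTC cells. The groups did not overlap, and the difference was -0.83 (SE 0.23) with a 95% interval from -1.45 to -0.22. That difference rests in part on the third row below, which the filter kept only through its siNTC arrays. It did not pass over all genes (limma, adjusted p = 0.514; unadjusted p = 0.0177).

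The rows of SLC51B were uneven. The third row had 1.15 and 1.29 in siNF90, against 3.43 on each siNTC array, a difference of -2.21 (limma over all kept rows, adjusted p = 0.629). The first row had 2.44 and 3.04 in siNF90 against 4.21 and 3.25 in siNTC cells, and the second 3.42 and 2.61 in siNF90 against 3.56 and 3.51 in siNTC cells. In these 3 rows the siNF90 arrays lay below the siNTC arrays. The brightest row, the fourth, had 4.49 and 4.02 in siNF90 against 4.32 and 3.43 in siNTC cells, and its groups overlapped. With the filter at the 60th percentile only this row was left, and the difference turned to 0.38. The dim sixth row had 1.70 and 1.36 in siNF90 against 0.719 and 0.791 in siNTC cells. Without the dim filter the difference of SLC51B was -0.42. The gene of the alpha subunit, SLC51A, is not analysed here.

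**Figure D2:**
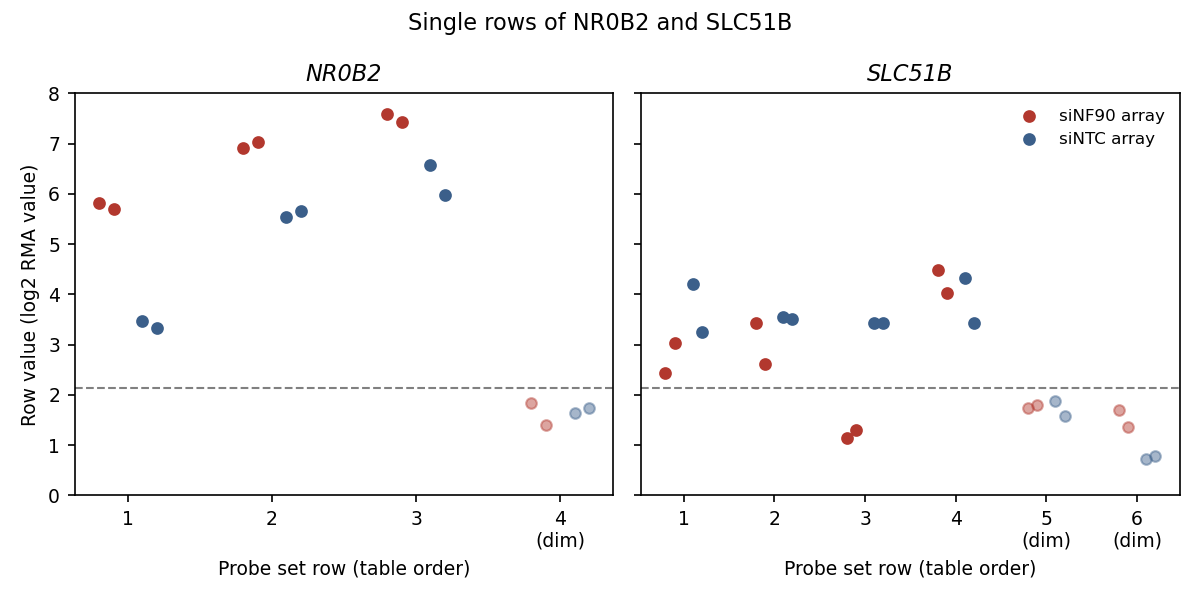
Values of single probe set rows (log2 RMA value, vertical axis) of NR0B2 and SLC51B, in the order of the table (horizontal axis). Points are single arrays, siNF90 in red on the left and siNTC in blue on the right of each row. Pale points are dim rows and the dashed line is the threshold of 2.13. The 3 kept rows of NR0B2 have differences from 1.22 to 2.35, and the 4 kept rows of SLC51B from -2.21 to 0.38.

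The upstream sequences of SLC51B and ABCB11 are shown because both are known FXR targets whose gene values had a negative difference, unlike NR0B2. That direction is not settled, as neither difference passed. With the filter at the 60th percentile both turned positive (SLC51B 0.38, ABCB11 0.10). The sequences are the 250 bases before the annotated start in RefSeq (GRCh38.p14). SLC51B lies on the plus strand, at chr15:65045137-65045386, and ABCB11 on the minus strand, at chr2:169031325-169031574, each written 5′ to 3′ on the strand of its gene. FXR with RXR prefers an inverted repeat of the receptor half-site (IR-1), AGGTCA and TGACCT with any 1 base between them, which reads the same on both strands. Known elements often depart from that consensus. Capitals mark the stretch with the most matches to its 12 fixed bases, which need not be an element that FXR binds. Reported FXR elements were not looked up.
SLC51B: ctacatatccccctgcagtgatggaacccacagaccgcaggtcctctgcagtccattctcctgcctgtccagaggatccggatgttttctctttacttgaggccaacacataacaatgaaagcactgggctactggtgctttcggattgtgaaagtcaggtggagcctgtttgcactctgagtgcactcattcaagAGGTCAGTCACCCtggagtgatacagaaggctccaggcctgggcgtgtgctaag
ABCB11: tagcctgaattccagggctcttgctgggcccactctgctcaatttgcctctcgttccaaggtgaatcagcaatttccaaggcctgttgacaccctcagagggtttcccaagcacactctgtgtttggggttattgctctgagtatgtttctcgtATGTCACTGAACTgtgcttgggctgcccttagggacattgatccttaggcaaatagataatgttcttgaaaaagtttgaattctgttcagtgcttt
In SLC51B the best stretch began 54 bases and in ABCB11 96 bases before the start, and each matched 10 of the 12 bases. A stretch at least as good was present in 332 of 35114 such upstream windows, or 0.945%. SLC10A1 also had one of 10 matched bases, while NR1H4 and the 2 windows of FGFR4 had at most 8. A match of letters says nothing of binding in these cells. Sequences of the other members were not used here.

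SLC10A1, the sodium-dependent uptake transporter NTCP, had 2 kept rows of 7. Its gene value was 2.997 and 2.34 in siNF90, against 2.06 and 3.98 in siNTC cells. The siNTC arrays lay on both sides of the siNF90 arrays, and the interval of the difference of -0.35 ran from -2.14 to 1.43 (limma, adjusted p = 0.9004). Without the second siNTC array the difference was 0.60, so neither a rise nor a fall could be read for this gene.

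FGF19, the hormone that reports bile acids to the hepatocyte, is made chiefly in the intestine, but it was well above the dim threshold in these carcinoma cells. Its gene value over 4 kept rows of 5 was 5.34 and 4.88 in siNF90, against 4.83 and 5.69 in siNTC cells. The groups overlapped, with the second siNTC array highest and the first lowest. The difference was -0.15 (SE 0.36; 95% interval from -1.09 to 0.79; limma, adjusted p = 0.924) and turned to 0.28 without the second siNTC array.

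FGFR4, the receptor of FGF19 on hepatocytes, had 6.66 and 6.65 in siNF90, against 6.35 and 6.41 in siNTC cells, over 17 kept rows. The siNF90 arrays lay above the siNTC arrays, by 0.27 (SE 0.17), with a 95% interval from -0.17 to 0.72 (limma, adjusted p = 0.687). Of the 17 rows 12 were positive and 5 negative. In 5 of the 17 siNF90 was above without overlap, where all kept rows gave 18.0%. The widest difference came from a weak row, with 3.43 and 3.74 in siNF90 against 1.56 and 1.95 in siNTC cells. That row passed the dim filter only through its siNF90 arrays. The brightest row had 9.33 and 9.17 in siNF90 against 9.27 and 9.34 in siNTC cells. With the median of rows in place of the mean the difference of FGFR4 was -0.070, and the median of its row differences was 0.098.

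**Figure D3:**
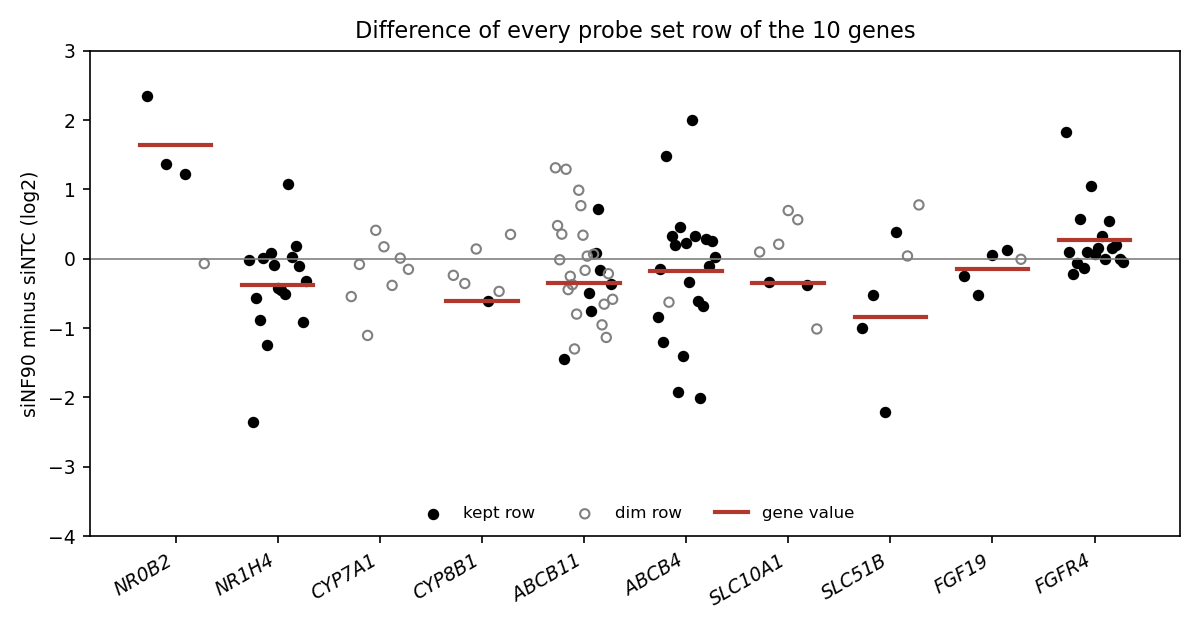
Difference siNF90 minus siNTC (log2, vertical axis) of each of the 119 rows of the 10 genes. Filled points are kept rows, open points dim rows, and red bars the difference of the gene value. The 3 kept rows of NR0B2 lie at 1.22 and above, while rows of the other genes lie on both sides of 0.

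Over the 72 kept rows of the 8 genes other than NR0B2, 32 differences were positive and 40 negative, with a median of -0.071. The siNF90 arrays were above without overlap in 10 rows and below in 12, and overlapped with siNTC in 50. Over all kept rows 18.0% were above and 20.3% below, which is 38.3% in either direction. The limma fit over all 171120 kept rows called 0.0%, against 12629 rows at an unadjusted p under 0.05, and the smallest adjusted p among these 72 rows was 0.629.

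The 5 lists of further bile acid genes below do not count the 10 genes themselves. Over all 19140 genes, 9092 differences were positive and 10048 negative. Groups did not overlap with siNF90 above in 19.2% and below in 22.0%, and 0.251% passed with the trend and robust prior. The lists were chosen with earlier results of these data known, so nothing is read from their counts. Of the 21 tested genes of bile acid synthesis and conjugation, limma called 0 at the adjusted threshold. Of these, 8 had a positive and 13 a negative difference, with siNF90 above without overlap in 5 and below in 9. The median was -0.22, and it was 0.11 without the second siNF90 array and -0.017 with the median of rows. SULT2A1, which sulfates bile acids and steroids, had 5.41 and 5.15 in siNF90, against 6.15 and 6.46 in siNTC cells (difference -1.02, SE 0.22). AKR1D1, the 5-beta-reductase of the steroid ring, had 2.82 and 3.27 in siNF90, against 3.98 and 4.17 in siNTC cells (difference -1.03, SE 0.23). AMACR, a racemase that acts on bile acid side chains, had 5.46 and 5.26 in siNF90, against 6.25 and 6.05 in siNTC cells (difference -0.79, SE 0.19). Each of these 3 genes had lower values on both siNF90 arrays and an adjusted p of 0.514 in limma. CYP7B1, an enzyme of the alternative route that was picked out after its values were seen, had the highest difference of the list, from 1 row with 2.75 and 4.35 in siNF90 against 1.66 and 0.986 in siNTC cells.

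Of 17 tested genes that transport bile acids, bilirubin and bile lipids, limma called 0, while 1, SLCO1B3, passed with the trend and robust prior (adjusted p = 0.0178). Over all genes 0.251% passed with that prior. In the list 3 genes had a positive and 14 a negative difference, with a median of -0.22 (-0.35 without the first siNF90 array). The siNF90 arrays were below without overlap in 9 and above in 1, where all genes gave 22.0% and 19.2%. SLCO1B3, a hepatic uptake carrier of organic anions that FXR is known to activate, had 3.37 and 3.13 in siNF90, against 5.07 and 5.50 in siNTC cells. ABCC3, an efflux pump of the basolateral membrane, had 4.02 and 4.06 in siNF90, against 4.55 and 4.63 in siNTC cells (difference -0.55, SE 0.17; limma, adjusted p = 0.523). MYO5B, a motor that brings transporters to the canalicular membrane, had 4.62 and 4.55 in siNF90, against 5.05 and 5.22 in siNTC cells (difference -0.55, SE 0.18; limma, adjusted p = 0.532). In all 3 genes the siNF90 arrays lay below the siNTC arrays.

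The nuclear receptors and their regulators were the list nearest to 0. Of 30 tested genes 14 had a positive and 16 a negative difference, from -0.43 to 0.40 with a median of -0.0044, and limma called 0. PRMT1, an arginine methyltransferase that acts as a coactivator, had a difference of 0.40 (SE 0.17), the corepressor NCOR1 one of 0.36 (SE 0.17) and the clock repressor NR1D1 one of -0.38 (SE 0.18). Their adjusted p lay between 0.605 and 0.620 in limma. Among genes picked out after their values were seen, RXRA, the partner of FXR, had 5.17 and 5.14 in siNF90, against 5.05 and 4.90 in siNTC cells. NR5A2, the receptor LRH-1 through which SHP is known to act on CYP7A1, had 6.04 and 6.13 in siNF90, against 6.12 and 6.12 in siNTC cells (difference -0.039, 95% interval from -0.49 to 0.41).

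Of 26 tested genes reported as FXR targets outside bile acid handling, 10 had a positive and 16 a negative difference, with a median of -0.11, and limma called 0. The median was 0.0098 without the second siNTC array. ICAM1, an adhesion molecule, had 8.86 and 8.79 in siNF90, against 7.88 and 8.04 in siNTC cells. It was the 1 gene of the list to pass with the trend and robust prior (adjusted p = 0.0126), where 0.251% of all genes passed. FGB, the beta chain of fibrinogen, had 8.89 and 8.85 in siNF90, against 9.31 and 9.47 in siNTC cells (difference -0.52, SE 0.18; limma, adjusted p = 0.547). PCK1, an enzyme of gluconeogenesis, had 3.88 and 3.89 in siNF90, against 3.11 and 3.56 in siNTC cells (difference 0.55, SE 0.22; limma, adjusted p = 0.586), and its difference was -0.039 without the dim filter. Reported FXR targets lay on both sides of 0 in these cells, for example NR0B2 and ICAM1 positive and SLC51B, SLCO1B3 and FGB negative. The direction in which FXR acts on each target was not taken into account, and the activity of FXR was not tested.

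In the FGF19 receptor axis, 7 of 16 tested genes had a positive and 9 a negative difference, with a median of -0.10, and limma called 0. The median was 1.4e-05 without the second siNTC array. KLB, the co-receptor beta-klotho that FGFR4 needs for FGF19, had 6.22 and 6.19 in siNF90, against 6.70 and 6.54 in siNTC cells (difference -0.41, SE 0.18; limma, adjusted p = 0.600). FGFR3 had 5.95 and 5.90 in siNF90, against 5.34 and 5.39 in siNTC cells, a difference of 0.56 (SE 0.17). FGFR2 had 2.795 and 2.788 in siNF90, against 3.32 and 3.40 in siNTC cells, a difference of -0.57 (SE 0.17). The FGFR2 difference was -0.10 without the dim filter. Both receptors had an adjusted p of 0.519 in limma, and their groups did not overlap.

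**Figure D4:**
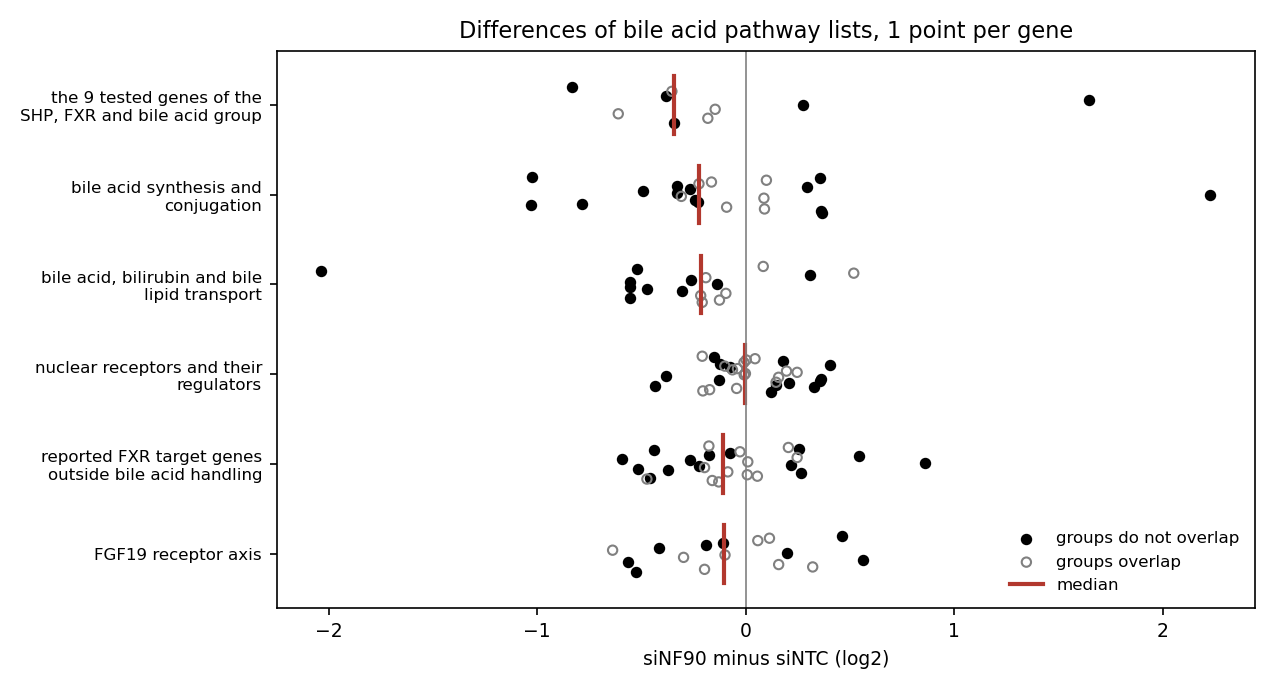
Difference siNF90 minus siNTC (log2, horizontal axis) of the genes of the bile acid lists (rows), 1 point per gene. Filled points are genes whose groups do not overlap, open points genes whose groups overlap, and red bars are medians. NR0B2 lies at 1.65 in the top row, whose median is -0.35, and SLCO1B3 at -2.04 in the transport list.

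The 5 genes with at least 3 kept rows whose profile over the 4 arrays lay closest to that of NR0B2, by Euclidean distance after centring each gene on its mean, were CYR61 (0.144), IGFBP4 (0.242), HEY1 (0.351), GMFG (0.397) and SERPINB9 (0.407). CYR61 is a matrix-associated secreted protein, and it had 6.79 and 6.62 in siNF90, against 5.11 and 5.06 in siNTC cells. HEY1, a repressor downstream of Notch, had 4.80 and 4.57 in siNF90, against 3.53 and 2.96 in siNTC cells. This measure of likeness rests on 4 arrays and largely follows the difference for which NR0B2 was taken up. None of the 5 belongs to the bile acid lists. Those lists hold few of the 14441 genes with at least 3 kept rows, so nothing is read from that.

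Tested genes next to NR0B2 in the RefSeq order of chromosome 1 had smaller differences than its 1.65. NUDC, the nearest tested neighbour on one side, had 5.74 and 5.65 in siNF90, against 5.79 and 5.76 in siNTC cells (difference -0.079, 95% interval from -0.53 to 0.37; limma, adjusted p = 0.912). TRNP1, the nearest tested gene on the other side, had 5.57 and 5.47 in siNF90, against 5.30 and 5.58 in siNTC cells (difference 0.077, 95% interval from -0.44 to 0.59; limma, adjusted p = 0.927). Further out, GPN2 had a difference of 0.25, with siNF90 above without overlap, and GPATCH3 one of -0.23, with groups that overlapped. NR0B2 was taken up for its difference, and a cause shared by the region was not tested.

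The arrays carried markers of hepatocyte-derived cells, at levels that differed widely between genes. ALB had 10.82 and 10.57 in siNF90, against 11.11 and 11.07 in siNTC cells, and the fetal marker AFP 10.76 and 10.80 in siNF90, against 10.84 and 10.85 in siNTC cells. Of 15 tested hepatocyte markers 7 had a positive and 8 a negative difference (median -0.069). The mean level of the list was 8.69 and 8.60 in siNF90, against 8.73 and 8.71 in siNTC cells. Its weakest gene, TAT, had 4.65 and 4.12 in siNF90, against 4.02 and 4.05 in siNTC cells. The 6 tested cholangiocyte markers had a mean level of 5.35 and 5.37 in siNF90, against 5.49 and 5.53 in siNTC cells. That mean hides a wide range. The weakest, AQP1, had 3.15 and 3.41 in siNF90, against 2.97 and 2.96 in siNTC cells. The brightest, SOX9, had 8.45 and 8.33 in siNF90, against 8.29 and 8.25 in siNTC cells. The 8 ileal enterocyte markers had 3.81 and 3.90 in siNF90, against 3.77 and 3.81 in siNTC cells, and the 8 fibroblast and stellate markers 3.31 and 3.55 in siNF90, against 3.41 and 3.57 in siNTC cells. VIL1, the brightest ileal marker, had 7.082 and 7.005 in siNF90, against 6.899 and 6.638 in siNTC cells. TAT, AQP1, SOX9 and VIL1 were picked out after their values were seen. In these 4 lists limma called 0 genes. Their part in the differences above was not tested.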

How the data were processed

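Total RNA of siNF90- and siNTC-treated Huh7 cells was hybridised to 1 array per sample, 2 per group, and groups and replicate numbers were taken from the sample titles. The deposited log2 values come from RMA-sketch in Affymetrix Expression Console, run by the authors per the labels. Their log base follows from the method and the range of the values. For program version and genome build, none is given in the sources used here. Of 352859 rows, 257971 had 1 symbol in the platform's table, 17460 several (not used) and 77428 were unnamed. Array medians lay between 2.72 and 2.79, and arrays correlated at 0.936 to 0.958 across genes.

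Gene values were tested with limma 3.58.1 in R 4.3.3 (lmFit and eBayes, two-sided, no covariate, Benjamini-Hochberg over all 19140 genes), after a check on simulated data, and SE and 95% intervals come from this fit. The number of arrays limits the precision. The deviations of same-numbered arrays correlated at -0.0118. The members, the lists and the tests were chosen with earlier results of these data known. Named were all members, for each list the 3 genes with the smallest p where none passed, the 5 nearest profiles to NR0B2, and ALB and AFP. The alternatives were other dim filters, the median of rows, identical rows counted once, quantile normalization again, centring on array medians, a trend and robust prior, the replicate block, and leaving out each array.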

Additional observations from a re-analysis of the deposited data

How the results depend on the processing

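With 2 arrays a group the fits have few degrees of freedom, and after leaving out an array the lone array of a group was assumed to vary like the other group. The difference of NR0B2, for which the gene was taken up, was positive in all 12 alternatives, but several could not turn its sign. The trend and robust prior and the replicate block leave a difference unchanged. Leaving out 1 array keeps the sign where groups do not overlap. The difference of NR0B2 was 1.22 without the dim filter, 1.37 with the median of rows and 1.55 to 1.75 when each array was left out. The count of all genes called was 22 higher and 26 lower with the trend and robust prior, 2 higher and 2 lower without the dim filter, and 0 in each direction under the other alternatives. The sign turned in some genes that did not pass. With the filter at the 60th percentile, ABCB11 was 0.10, ABCB4 0.12 and SLC51B 0.38; with the median of rows ABCB4 was 0.041, FGFR4 -0.070 and AFP 0.046; without the dim filter PCK1 was -0.039. Leaving out 1 array gave -0.44 to 0.079 for ABCB4, -0.57 to 0.28 for FGF19 and -1.31 to 0.60 for SLC10A1. Median differences with each array left out ran from -0.31 to 0.11 for bile acid synthesis, from -0.35 to -0.13 for transport, from -0.14 to 0.0098 for the other FXR targets and from -0.14 to 1.4e-05 for the FGF19 axis. With the median of rows the medians were -0.017 for synthesis and -0.17 for the other FXR targets, which had -0.071 without the dim filter. For SLC51B the filter leaves 1 row; for the other results that moved the cause was not tested. All 38 results stayed the same with the replicate block. Because both groups hold the same replicate numbers, the block cannot change a difference or a median, for example SLC51B at -0.83. Those values were therefore fixed in advance and are no check. CYP7A1, CYP8B1, ABCB11 and SLC10A1 had most or all of their rows under the dim threshold, so signal limits what can be read for them.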
